A study of Mus musculus with 8 samples.

Results

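The genes described here carry out antigen presentation by MHC class II. They were chosen as 8 listed symbols and mapped through their Ensembl gene identifiers: *H2-Aa*, *H2-Ab1*, *H2-Eb1*, *H2-DMa*, *H2-DMb1*, *H2-Oa*, *Cd74* and *Ciita*. All 8 were found among the 55416 genes of the count files, and all 8 passed the expression filter that kept 18560 genes for testing. Class II molecules are pairs of an alpha and a beta chain that show peptides from taken-up proteins to CD4 T cells. New pairs travel with the invariant chain CD74, proteases trim CD74 in endosomes, H2-DM exchanges its last fragment for a peptide, and H2-O restrains H2-DM, mostly in B cells. The transactivator CIITA binds no DNA itself and acts through a complex on the promoters of these genes, and dendritic cells, B cells and macrophages are their best known source in lung, with alveolar type 2 cells also known to carry class II.

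Bulk RNA was sequenced from the lungs of 8 female C57BL/6 mice (C57BL/6J in the methods), 6 to 8 weeks old, with 1 library per mouse. The 3 control mice (numbered 1, 2 and 4) received the solvent DMSO in the tail vein and saline in the peritoneum 0.5 h later. The 3 LPS mice (1, 6 and 7) received 35 mg/kg of LPS, the endotoxin of Gram-negative bacteria. The 2 dual-treatment mice (2 and 5) received 10 mg/kg of YW3-56, an inhibitor of protein arginine deiminases dissolved in DMSO, and 35 mg/kg of LPS 0.5 h later, and lungs were analysed at 24 h. The methods name no DMSO injection for the LPS group, so the inhibitor and its solvent cannot be told apart in the comparison of dual treatment with LPS. No group received YW3-56 without LPS. The libraries held 19061949 to 20908608 counts. The unit used below is CPM, counts scaled to a common library total after adjusting each total by its TMM factor (given below). On this scale 1 CPM stood for 16.9 to 22.8 counts.

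The tissue label was checked against lung markers. *Sftpc*, the surfactant protein C gene of alveolar type 2 cells, was the most abundant gene of its marker list at 22770 CPM in control, 11980 CPM in LPS and 13210 CPM in dual-treated lungs. The list of 6 capillary endothelial markers summed to 1575 to 3172 CPM in every mouse. Both cell types of the lung were thus present in all 8 libraries.

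LPS mice 6 and 7 stood apart from the other 6. The squamous epithelium genes (7 found of 8, *Krt13* the most abundant over all mice) summed to 702 CPM in LPS mouse 6 and 1967 CPM in LPS mouse 7, against 1.30 CPM in LPS mouse 1, 11.4 to 15.2 CPM in controls, and 10.2 and 23.6 CPM in dual-treated mice 2 and 5. *Krt4* was just above *Krt13* in LPS mouse 6 (293 against 286 CPM). *Krt14* was above *Krt13* in control (7.23 against 0.1905 CPM) and in dual-treated lungs (14.0 against 0.711 CPM). The 7 skeletal muscle genes (*Acta1* the most abundant over all mice) summed to 483 and 1255 CPM in LPS mice 6 and 7, against 16.9 CPM in LPS mouse 1, 9.49 to 19.1 CPM in controls, and 4.95 and 6.59 CPM in dual-treated mice. *Ckm* was above *Acta1* in control (7.49 against 0.339 CPM), in LPS mouse 1 (7.95 against 0.534 CPM) and in dual-treated lungs (1.67 against 0.135 CPM). *Sprr3*, a defining squamous gene, had 0 counts in LPS mouse 1 and in each control. Tests of the 8 class II genes that involve LPS mice, and the counts of genes called in the lists further below, are therefore also given without mice 6 and 7, which leaves LPS mouse 1 as the only LPS library, with its spread assumed equal to that of the other groups. Medians, and values of single genes from the other lists, are from all mice unless stated.

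Levels are CPM after TMM normalization, and differences are log2 fold changes with their standard error (SE) from edgeR's quasi-likelihood test on all 8 libraries. P-values were adjusted by Benjamini-Hochberg over the 18560 tested genes, and a gene rose or fell when this adjusted p was under 0.05. The LPS and the dual-treatment group are compared with the same 3 controls, and the dual-treatment group also with the 3 LPS mice, so the comparisons share samples. Library scaling mattered, because the TMM factors were 1.06 to 1.08 in control, 0.810 to 0.930 in LPS and 1.09 to 1.11 in dual-treated lungs. With scaling to library size alone, the median log2 difference over all tested genes moved from -0.01 to -0.29 for LPS against control and from 0.06 to 0.38 for dual treatment against LPS.

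In LPS against control, 1 of the 8 class II genes rose (*Cd74*) and 2 fell (*H2-DMa* and *H2-Oa*), while 32.6% of all tested genes rose and 33.9% fell. In dual treatment against control none rose and 1 fell (*H2-Eb1*), while 9.13% of all tested genes rose and 7.02% fell. In dual treatment against LPS none rose and 5 fell (*H2-Aa*, *H2-Ab1*, *H2-Eb1*, *Cd74* and *Ciita*), while 31.7% of all tested genes rose and 27.4% fell. Without LPS mice 6 and 7, 3 of the 8 rose and 0 fell in LPS against control, and 0 rose and 4 fell in dual treatment against LPS. In that fit 10687 of 19272 tested genes passed in LPS against control (48.9% of them higher) and 9460 of 19272 in dual treatment against LPS (52.8% of them higher). With a fold change over 2 and unadjusted p under 0.05 as the criterion in place of the adjusted p, *Cd74* rose and *H2-Oa* fell in LPS against control, none passed in dual treatment against control, and only *Cd74* fell in dual treatment against LPS. The median log2 difference of the 8 genes was 0.18, -0.42 and -0.75 in these comparisons, against -0.01, 0.00 and 0.06 over all tested genes.

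Counting genes whose groups did not overlap in CPM, 1 class II gene was higher and 1 lower in LPS than in control, where 34.7% of all tested genes were higher and 37.3% lower without overlap. In dual treatment against control 0 were higher and 4 lower, where 26.1% of all tested genes were higher and 26.2% lower. Between dual treatment and LPS, 1 was higher in dual treatment and 5 were lower, where 37.9% of all tested genes were higher and 32.9% lower. These last 5 overlapped when CPM was scaled to library size alone. In bulk lung, fewer cells that carry class II and less RNA per cell cannot be told apart for any of these genes.

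**Figure D1:**
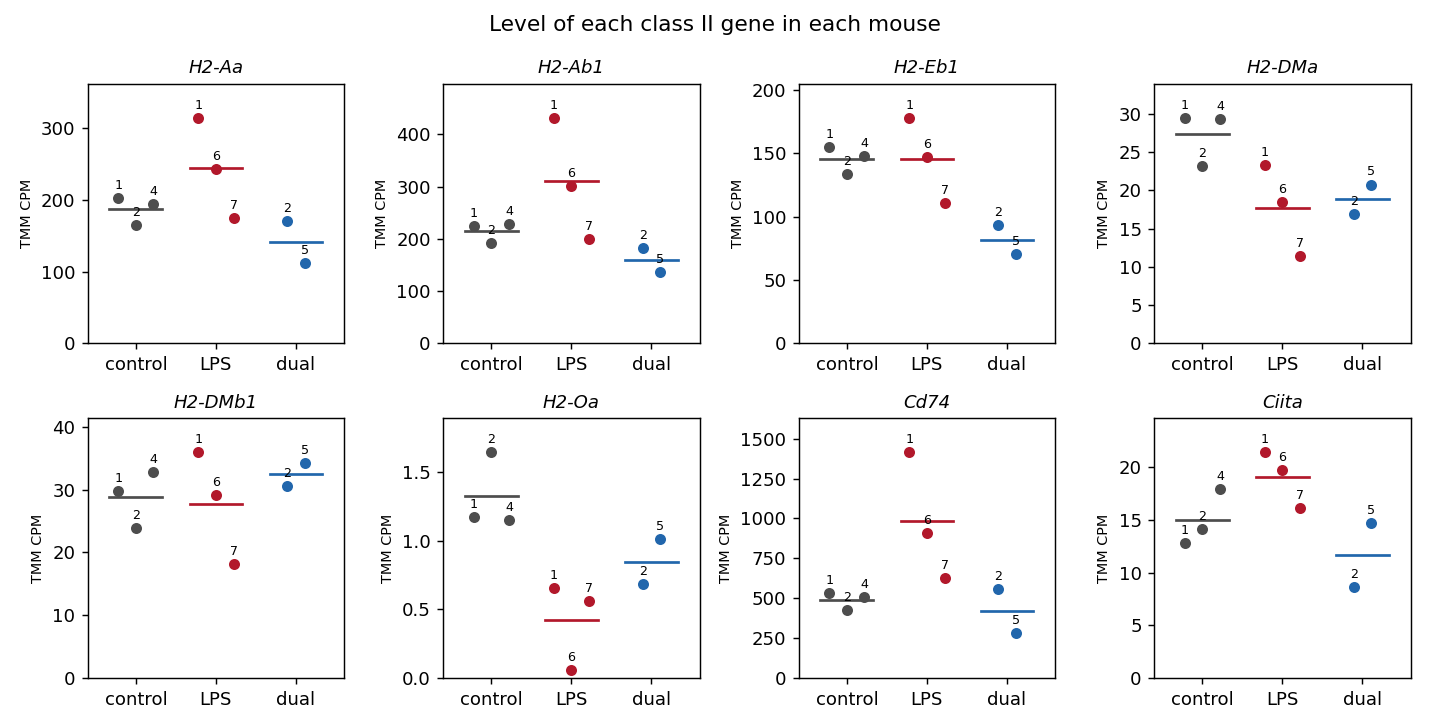
Level of each class II gene in each mouse. The y axes give TMM CPM from 0, the points are single mice with their numbers, and the lines are group means (n = 3 control, 3 LPS and 2 dual-treated mice). The LPS mice spread widely, with mouse 1 above mouse 7 for all 8 genes, and *Cd74* ranges from 628 to 1415 CPM within this group.

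The classical chains make the peptide-binding pairs at the cell surface. *H2-Aa*, the I-A alpha chain gene, had 202, 164 and 194 CPM in control mice 1, 2 and 4, then 314, 243 and 174 CPM in LPS mice 1, 6 and 7, and 170 and 112 CPM in dual-treated mice 2 and 5. *H2-Ab1*, the I-A beta chain gene, had 226, 192 and 228 CPM in control, 432, 302 and 200.3 CPM in LPS, and 182 and 136 CPM in dual-treated mice. For both genes LPS mouse 1 was the highest of all 8 mice and dual-treated mouse 5 the lowest, LPS mouse 7 lay within the control range, and the dual-treated mice lay below every LPS mouse. *H2-Ab1* was also lower in both dual-treated mice than in any control.

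Against control, the log2 difference in LPS was 0.38 for *H2-Aa* (95% confidence interval -0.11 to 0.88, edgeR adjusted p = 0.151) and 0.53 for *H2-Ab1* (-0.01 to 1.08, edgeR adjusted p = 0.0764). *H2-Ab1* passed with all mice in DESeq2 (0.56, DESeq2 adjusted p = 0.0307) and with no filter on low counts (0.50, edgeR adjusted p = 0.0144). Without LPS mouse 7 both passed the threshold, at 0.58 (edgeR adjusted p = 0.0239) and 0.78 (edgeR adjusted p = 0.00468), and without mice 6 and 7 both passed it at 0.75 (edgeR adjusted p = 0.0221) and 1.01 (edgeR adjusted p = 0.00212). Both fell in dual treatment against LPS, *H2-Aa* by 0.79 (SE 0.252, edgeR adjusted p = 0.0225) and *H2-Ab1* by 0.97 (SE 0.278, edgeR adjusted p = 0.0139) on the log2 scale. Against control the dual-treated lungs differed by -0.41 for *H2-Aa* (-0.96 to 0.15, edgeR adjusted p = 0.309) and -0.44 for *H2-Ab1* (-1.05 to 0.18, edgeR adjusted p = 0.322). The fall of *H2-Aa* against LPS did not pass without LPS mouse 1 (-0.57, edgeR adjusted p = 0.0552), without dual-treated mouse 5 (-0.54, edgeR adjusted p = 0.139), or with scaling to library size (-0.44, edgeR adjusted p = 0.109). That of *H2-Ab1* did not pass without dual-treated mouse 5 (-0.79, edgeR adjusted p = 0.0847), which leaves 1 dual-treated mouse. Without LPS mice 6 and 7 the falls were -1.16 (edgeR adjusted p = 0.00548) and -1.45 (edgeR adjusted p = 0.000775). Over all alternatives the adjusted p (edgeR or DESeq2) of these falls ranged from 0.000843 to 0.139 for *H2-Aa* and from 0.000137 to 0.0847 for *H2-Ab1*, and that of the LPS differences from 0.0221 to 0.743 and from 0.00212 to 0.369.

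*H2-Eb1*, the I-E beta chain gene, had 155, 133 and 148 CPM in control, 178, 147 and 111 CPM in LPS, and 93.1 and 70.7 CPM in dual-treated mice. The dual-treated mice were below all 6 others, and the LPS mice spread to both sides of the controls. In LPS against control the log2 difference was 0.00 (-0.39 to 0.39, edgeR adjusted p = 1), and its sign turned positive with RLE scaling (0.04) and without LPS mice 6 and 7 (0.30, edgeR adjusted p = 0.163). In dual treatment *H2-Eb1* fell by 0.83 against control (SE 0.197, edgeR adjusted p = 0.0208) and by 0.83 against LPS (SE 0.197, edgeR adjusted p = 0.00554), lower in 2 of 2 mice each time. The fall against LPS kept an adjusted p under 0.05 in all 12 refits with another scaling, tool, filter or set of mice (from -1.13 without LPS mice 6 and 7, edgeR adjusted p = 0.00162, to -0.49 with library-size scaling, edgeR adjusted p = 0.0308), with a range of adjusted p (edgeR or DESeq2) of 6.57e-05 to 0.0402, although its fold of 1.77 did not meet the criterion of a fold over 2. The fall against control, also of 1.77 times, did not pass without control mouse 1 (-0.78, edgeR adjusted p = 0.0648), control mouse 4 (-0.84, edgeR adjusted p = 0.0515) or dual-treated mouse 5 (-0.67, edgeR adjusted p = 0.0771), with a range over all alternatives (edgeR or DESeq2) of 0.000267 to 0.0771. C57BL/6J mice are known to make no I-E alpha chain, and *H2-Ea*, its gene, had 0 counts in the controls and dual-treated mice and 3, 2 and 3 counts in LPS mice 1, 6 and 7, too few to be tested.

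*H2-DMa* and *H2-DMb1* encode the chains of H2-DM, the peptide exchanger. *H2-DMa* had 29.5, 23.2 and 29.4 CPM in control, 23.3, 18.4 and 11.4 CPM in LPS, and 16.9 and 20.8 CPM in dual-treated mice. *H2-DMb1* had 29.7, 23.8 and 32.8 CPM in control, 35.9, 29.1 and 18.1 CPM in LPS, and 30.6 and 34.3 CPM in dual-treated mice. *H2-DMa* was high in the controls, with LPS mouse 1 just inside their range, whereas for *H2-DMb1* the groups overlapped throughout.

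*H2-DMa* fell by 0.63 in LPS against control (SE 0.232, edgeR adjusted p = 0.0354), and its log2 difference in dual treatment was -0.54 against control (-1.12 to 0.04, edgeR adjusted p = 0.197) and 0.09 against LPS (-0.49 to 0.67, edgeR adjusted p = 0.777). *H2-DMb1* differed by -0.06 in LPS (-0.56 to 0.45, edgeR adjusted p = 0.837) and 0.17 in dual treatment (-0.38 to 0.73, edgeR adjusted p = 0.691) against control, and by 0.23 between dual treatment and LPS (-0.33 to 0.79, edgeR adjusted p = 0.447). The fall of *H2-DMa* did not pass without control mouse 1 (-0.57, edgeR adjusted p = 0.0965), control mouse 4 (-0.58, edgeR adjusted p = 0.0933), LPS mouse 6 (-0.65, edgeR adjusted p = 0.0673) or LPS mouse 7 (-0.38, edgeR adjusted p = 0.0687), and was -0.23 without mice 6 and 7 (edgeR adjusted p = 0.352; range over all alternatives, edgeR or DESeq2, 0.00267 to 0.352). Without these 2 mice *H2-DMb1* differed by 0.33 in LPS against control (edgeR adjusted p = 0.168), and dual treatment against LPS gave -0.31 for *H2-DMa* (edgeR adjusted p = 0.239) and -0.155 for *H2-DMb1* (edgeR adjusted p = 0.536), signs opposite to those with all mice. With the control and dual-treatment groups alone in the fit, *H2-DMa* fell in dual treatment (-0.53, edgeR adjusted p = 0.0474). With scaling to library size *H2-DMb1* rose in dual treatment against LPS (0.57, edgeR adjusted p = 0.0430), and without LPS mouse 7 its difference was -0.01 (edgeR adjusted p = 0.956).

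*H2-Oa* encodes the alpha chain of H2-O, the restrainer of H2-DM. It was scarce, with 24, 35 and 25 counts in control, 11, 1 and 10 counts in LPS, and 15 and 23 counts in dual-treated mice. All LPS mice were below all controls and below both dual-treated mice, which were themselves below the controls. In CPM the group means were 1.32 ± 0.278 (SD, n = 3), 0.423 ± 0.320 (n = 3) and 0.845 ± 0.233 (n = 2). *H2-Oa* fell by 1.63 in LPS against control (SE 0.604, edgeR adjusted p = 0.0364). The call was lost without control mouse 1 (-1.71, edgeR adjusted p = 0.0590), control mouse 2 (-1.45, edgeR adjusted p = 0.102), control mouse 4 (-1.73, edgeR adjusted p = 0.0582), LPS mouse 6 (-1.11, edgeR adjusted p = 0.0504), or LPS mice 6 and 7 (-1.01, edgeR adjusted p = 0.169), with a range over all alternatives (edgeR or DESeq2) of 0.0155 to 0.169. In dual treatment the difference was -0.64 against control (-2.05 to 0.76, edgeR adjusted p = 0.538) and 0.99 against LPS (-0.51 to 2.50, edgeR adjusted p = 0.227), or 0.365 without LPS mice 6 and 7 (edgeR adjusted p = 0.634).

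*Cd74* encodes the invariant chain, which blocks the peptide groove and guides new class II pairs to endosomes. It had 534, 425 and 508 CPM in control, 1415, 907 and 628 CPM in LPS, and 559 and 281 CPM in dual-treated mice. Each LPS mouse was above each control and each dual-treated mouse, dual-treated mouse 2 was just above the controls, and dual-treated mouse 5 was below them. *Cd74* rose by a log2 difference of 1.01 in LPS against control (SE 0.312, edgeR adjusted p = 0.0167, higher in 3 of 3 mice) and fell by 1.23 in dual treatment against LPS (SE 0.360, edgeR adjusted p = 0.0153, lower in 2 of 2 mice). Dual treatment against control gave -0.22 (-0.9997 to 0.56, edgeR adjusted p = 0.723), and 0.16 without dual-treated mouse 5 (edgeR adjusted p = 0.799). The rise in LPS did not pass without control mouse 2 (0.91, edgeR adjusted p = 0.0597), without LPS mouse 1 (0.66, edgeR adjusted p = 0.0583), or with scaling to library size (0.70, edgeR adjusted p = 0.0505), and was 1.54 without LPS mice 6 and 7 (edgeR adjusted p = 0.00423). The fall against LPS was -1.76 without LPS mice 6 and 7 (edgeR adjusted p = 0.00429) and did not pass without dual-treated mouse 5 (-0.83, edgeR adjusted p = 0.0934). Over all alternatives the adjusted p (edgeR or DESeq2) ranged from 0.000121 to 0.0597 for the rise and from 6.45e-05 to 0.0934 for the fall.

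*Ciita*, the transactivator gene, had 12.8, 14.1 and 17.9 CPM in control, 21.4, 19.7 and 16.1 CPM in LPS, and 8.58 and 14.7 CPM in dual-treated mice. LPS mouse 7 lay within the control range, dual-treated mouse 5 did too, and both dual-treated mice were below every LPS mouse. The log2 difference was 0.35 in LPS against control (-0.14 to 0.84, edgeR adjusted p = 0.179, and 0.52 without LPS mice 6 and 7, edgeR adjusted p = 0.179) and -0.36 in dual treatment against control (-0.92 to 0.19, edgeR adjusted p = 0.357). *Ciita* fell by 0.71 in dual treatment against LPS (SE 0.248, edgeR adjusted p = 0.0317). That call was lost without LPS mouse 1 (-0.63, edgeR adjusted p = 0.0732), LPS mouse 6 (-0.70, edgeR adjusted p = 0.0657), dual-treated mouse 2 (-0.40, edgeR adjusted p = 0.192) or LPS mice 6 and 7 (-0.89, edgeR adjusted p = 0.0537), and with scaling to library size (-0.38, edgeR adjusted p = 0.181), with a range over all alternatives (edgeR or DESeq2) of 0.00599 to 0.192. The order of the dual-treated mice differed from that of the classical chains and *Cd74*: mouse 5 had the more *Ciita* and mouse 2 the more of those 4 genes.

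**Figure D2:**
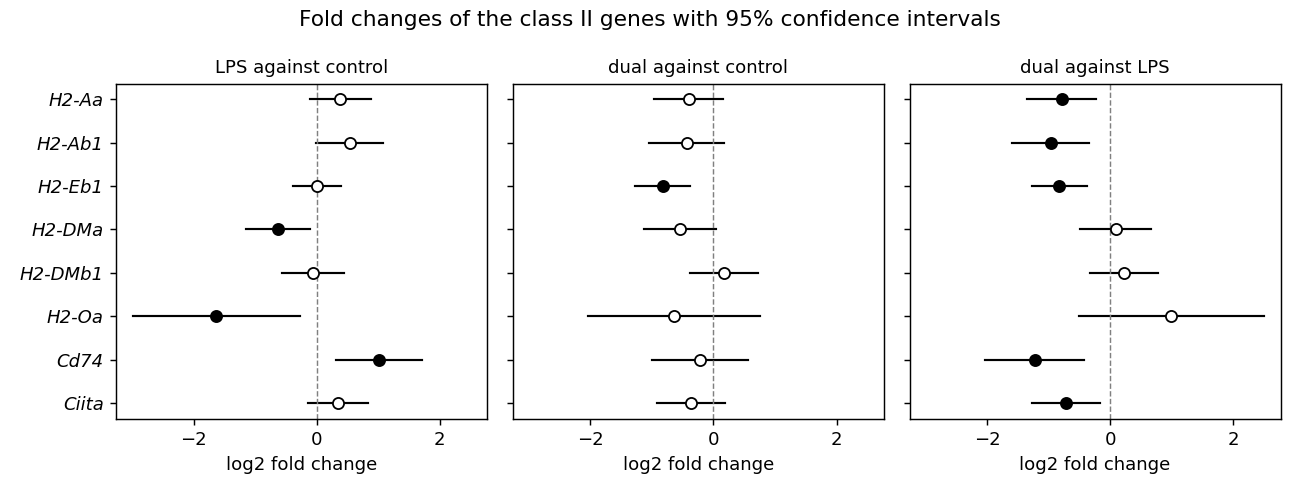
Log2 fold changes of the class II genes with 95% confidence intervals from edgeR, in the 3 comparisons, with TMM scaling. Filled points passed an adjusted p under 0.05, and the classical chains, *Cd74* and *Ciita* lie left of 0 in dual treatment against LPS, where with scaling to library size *H2-Aa* and *Ciita* no longer passed.

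Levels of different genes were compared as CPM per kb of the canonical transcript, and their order depends on this choice of length. In control lungs *Cd74* stood highest at 342 ± 39.9 CPM per kb (SD, n = 3), then *H2-Ab1* at 178 ± 16.5, *H2-Aa* at 166 ± 17.8, *H2-Eb1* at 85.6 ± 6.38, *H2-DMa* at 23.8 ± 3.14, *H2-DMb1* at 20.5 ± 3.24, *Ciita* at 2.00 ± 0.355 and *H2-Oa* at 1.09 ± 0.230. The ranges of *H2-Ab1* and *H2-Aa*, and those of *H2-DMa* and *H2-DMb1*, overlapped, and the other neighbours in this order did not. In LPS and in dual-treated lungs the same order held except that *H2-DMb1* stood above *H2-DMa*, and the group means of *Cd74* per kb were 687 ± 279 (n = 3) and 293 ± 137 (n = 2). Per kb of all annotated exons the order in control differed. In control mice 1, 2 and 4, *H2-Eb1* (59.5, 51.4 and 57) then stood above *H2-Aa* (47.1, 38.3 and 45.3). *H2-DMb1* (17.7, 14.2 and 19.5) stood above *H2-DMa* (6.81, 5.35 and 6.78) already in control. With that length *H2-Ab1* (87.8, 74.9 and 88.8) did not overlap *H2-Aa*. The 8 genes together summed to 1190, 977 and 1159 CPM in control, 2420, 1666 and 1159 CPM in LPS, and 1061 and 670.0 CPM in dual-treated mice, and *Cd74* gave 51% of this sum over all mice. LPS mouse 7 thus held the same sum as control mouse 4.

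A ratio of 2 genes within a mouse does not depend on how libraries are scaled. Its size depends on the lengths used, here those of the canonical transcripts, which were the same for all mice. *H2-DMb1* over *H2-DMa*, per kb, was 0.825, 0.843 and 0.915 in control, 1.27, 1.29 and 1.30 in LPS, and 1.49 and 1.35 in dual-treated mice. All 5 treated mice were above the controls, by 1.5 times for the LPS mean and 1.65 times for the dual-treatment mean, and the 3 LPS mice, mice 6 and 7 included, lay close together. *H2-Eb1* over *H2-Aa* was 0.508, 0.539 and 0.506 in control, 0.377, 0.402 and 0.423 in LPS, and 0.363 and 0.420 in dual-treated mice. All 5 treated mice were again on the same side, below the controls, and the 2 treated groups overlapped.

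*Cd74* over *H2-Aa*, per kb, was 2.08, 2.04 and 2.06 in control, 3.55, 2.94 and 2.85 in LPS, and 2.58 and 1.98 in dual-treated mice. The controls lay within a narrow range, every LPS mouse was above it, and the dual-treated mice lay on both sides. *H2-DMa* stood at 14.3%, 13.8% and 14.8% of the *H2-Aa* level per kb in control, 7.26%, 7.43% and 6.42% in LPS, and 9.71% and 18.2% in dual-treated mice. *H2-Ab1* over *H2-Aa*, the partners of I-A, was 1.04 to 1.09 in control, 1.07 to 1.28 in LPS, and 0.995 and 1.13 in dual-treated mice, with overlap of all groups. In 2-sided exact permutation tests over mice, 12 of the 21 ratio comparisons computed reached p = 0.1, the smallest p this design allows (0.175 after Benjamini-Hochberg adjustment over the 21), so that none could pass 0.05.

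**Figure D3:**
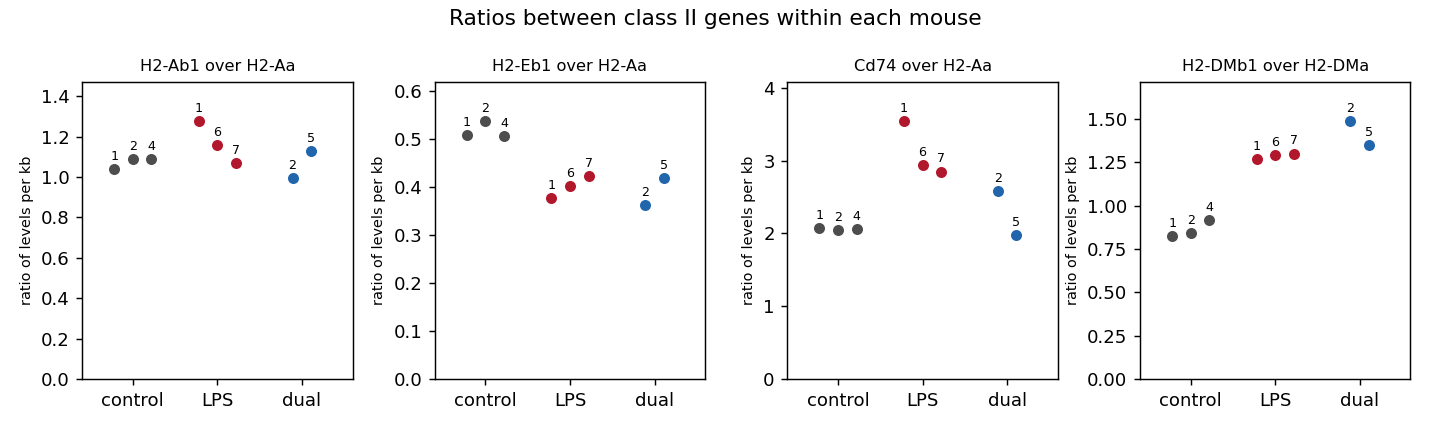
Ratios between class II genes within each mouse. The y axes give the ratio of levels per kb of the canonical transcripts from 0, and the points are single mice with their numbers (n = 3 control, 3 LPS and 2 dual-treated). *H2-DMb1* over *H2-DMa* lies at 0.825 to 0.915 in control and at 1.27 to 1.49 in all treated mice, and *H2-Eb1* over *H2-Aa* at 0.506 to 0.539 in control and 0.363 to 0.423 in treated mice.

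The genes' positions limit some of these values, since neither the strand setting of the counting nor its handling of reads with several matches is stated. On GRCm39 the chains lie together on chromosome 17, in the order *H2-Oa* (chr17:34311314-34314328), *H2-DMa* (chr17:34338515-34358958), *H2-DMb1* (chr17:34372046-34379204), *H2-Ab1* (chr17:34476663-34488393), *H2-Aa* (chr17:34493404-34506798, minus strand) and *H2-Eb1* (chr17:34504236-34535648). *Cd74* lies on chromosome 18 (chr18:60936899-60945731) and *Ciita* on chromosome 16 (chr16:10297923-10347694). Of the 50-base windows of the canonical *H2-DMb1* transcript, 31.7% also occur in transcripts of another gene, and 27.2% in those of its neighbouring copy *H2-DMb2*, so reads could be split between the 2. For *H2-Oa* 23.6% of windows occur in the antisense gene BC051537, which had 0 counts in all 8 libraries. The shares with any other gene were 4.98% for *H2-Eb1*, 2.45% for *Ciita*, and 0 for *H2-Aa*, *H2-Ab1*, *H2-DMa* and *Cd74*. Counting all annotated exons, *H2-Aa* and *H2-Eb1* share 118 bases on opposite strands, *H2-Eb1* shares 130 with Gm20513, *H2-DMb1* 285 with Gm64535, *H2-Oa* 396 with BC051537, *Cd74* 88 with *Mir5107*, *Ciita* 633 with *Dexi*, and *H2-DMa* 510, outside its canonical transcript, with *Brd2*. *H2-Ab1* shares none, and all but *Mir5107* lie on the strand opposite to the class II gene. *Brd2* rose in LPS against control (log2 difference 0.48, edgeR adjusted p = 0.00157) and fell in dual treatment against LPS (-0.58, edgeR adjusted p = 0.00139), while *Mir5107*, a microRNA gene inside *Cd74*, had 0.235 to 0.685 CPM in control, 0.837 to 2.37 CPM in LPS, and 0.408 and 0.2195 CPM in dual-treated mice. Counts given to *Mir5107* rose in LPS (1.74, edgeR adjusted p = 0.0244) and fell in dual treatment against LPS (-2.13, edgeR adjusted p = 0.0245). These are the directions of *Cd74*. *Mir5107* lies on the strand of *Cd74*, so its counts cannot be told apart from *Cd74* RNA. The part of any overlapping gene in the class II counts was not tested. The overlapping genes were looked up after the data were seen.

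The other class II chains, *H2-DMb2*, *H2-Ob*, *H2-Eb2* and the untested *H2-Ea*, fell in LPS against control in 3 of 3 tested genes (median log2 difference -1.47). *H2-Ob*, the beta chain gene of H2-O, had 6.41, 6.20 and 6.81 CPM in control, 2.195, 2.83 and 1.95 CPM in LPS, and 3.72 and 3.95 CPM in dual-treated mice, so that the 3 groups did not overlap. It fell by 1.47 in LPS (SE 0.211, edgeR adjusted p = 0.000202) and rose by 0.72 in dual treatment against LPS (SE 0.233, edgeR adjusted p = 0.0236). *H2-DMb2* fell by 1.36 in LPS (SE 0.385, edgeR adjusted p = 0.0110), and *H2-Eb2* fell by 2.72 (SE 1.02, edgeR adjusted p = 0.0385). *H2-Eb2* had 16, 17 and 17 counts in control, 0, 1 and 5 in LPS, and 83 and 10 in dual-treated mice 2 and 5, and it rose in dual treatment against LPS (log2 difference 4.12, edgeR adjusted p = 0.00675). Without LPS mice 6 and 7 the falls of *H2-DMb2* and *H2-Ob* passed, at -1.41 and -1.55, and that of *H2-Eb2* did not (edgeR adjusted p = 0.0601), with 0 counts in LPS mouse 1, which leaves the size of its difference unmeasured. In dual treatment against LPS the 2 rises passed without LPS mice 6 and 7, whereas DESeq2 called 1 rise in this list and library-size scaling 3.

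The promoter complex of class II genes is made of RFX, NF-Y and CREB proteins, with CIITA and acetyltransferases as partners. Of these 10 genes 4 rose and 4 fell in LPS against control (median log2 difference 0.195), 0 rose and 2 fell in dual treatment against control (-0.19), and 4 rose and 5 fell in dual treatment against LPS (-0.28). Among the most abundant 4, *Crebbp* rose in LPS (0.67, SE 0.0974, edgeR adjusted p = 0.000215) while *Kat2b* (-0.79, SE 0.0921, edgeR adjusted p = 5.37e-05) and the NF-Y subunit gene *Nfya* (-0.86, SE 0.158, edgeR adjusted p = 0.000974) fell, and *Ep300* differed by 0.18 (edgeR adjusted p = 0.0928). Of the 3 RFX subunits, named after their values were seen, *Rfx5* and *Rfxap* rose in LPS and *Rfxank* fell. *Rfx5* went from 12.8 CPM in control to 22.1 CPM in LPS and 15.1 CPM in dual-treated lungs, *Rfxap* from 23.6 to 34.4 and 19.6 CPM, and *Rfxank* from 16.1 to 8.07 and 14.8 CPM. With library-size scaling 2 of the 10, not 5, fell in dual treatment against LPS. Without LPS mice 6 and 7, 4 rose and 4 fell in LPS, and 3 rose and 5 fell in dual treatment against LPS.

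Interferon gamma signalling through the kinases JAK1 and JAK2 is the best known inducer of *Ciita*. Of 15 genes on routes to and from *Ciita*, 11 rose and 2 fell in LPS against control (median log2 difference 1.57), 5 rose and 0 fell in dual treatment against control (0.35), and 3 rose and 8 fell in dual treatment against LPS (-0.74). These counts were 11 and 2 in LPS, and 2 and 8 in dual treatment against LPS, without LPS mice 6 and 7. *Irf1*, an interferon-induced activator, had 124, 140.4 and 146 CPM in control, 1122, 715 and 802 CPM in LPS, and 109.8 and 119.6 CPM in dual-treated mice. It rose by 2.68 in LPS (SE 0.175, edgeR adjusted p = 2.04e-06) and fell by 2.94 in dual treatment against LPS (SE 0.208, edgeR adjusted p = 7.95e-06), with no overlap of LPS with either group. *Jak1* (0.75, SE 0.109), *Jak2* (1.57, SE 0.125) and the receptor gene *Ifngr1* (0.59, SE 0.104) also rose in LPS, with edgeR adjusted p of 0.000218, 5.54e-06 and 0.000743.

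Genes of this list named after their values were seen are *Ifng* and *Socs1*. *Ifng* had 2, 1 and 3 counts in control, 93, 41 and 8 counts in LPS mice 1, 6 and 7, and 0 and 5 counts in dual-treated mice, with means of 0.0942, 2.78 and 0.1098 CPM. *Socs1*, an inhibitor of JAK signalling, had 4.75 to 5.54 CPM in control, 150.2, 81.5 and 94.6 CPM in LPS, and 5.99 and 4.92 CPM in dual-treated mice.

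Endosomal proteases cut antigens and the invariant chain. Of 9 endosomal processing genes 5 rose in LPS (median log2 difference 0.39) and 4 in dual treatment (0.41) against control, and none fell, while between dual treatment and LPS 2 rose and 2 fell (0.17). The 4 that rose in dual treatment were *Ctss*, *Ctsb*, *Ifi30* and *Sppl2a*. *Ctss*, cathepsin S, the main protease of the invariant chain in antigen-presenting cells, had 130, 89.2 and 113 CPM in control, 242, 248.5 and 144 CPM in LPS, and 282 and 278 CPM in dual-treated mice. It was higher in every treated mouse than in the controls, by 0.94 in LPS (SE 0.208, edgeR adjusted p = 0.00300) and 1.34 in dual treatment (SE 0.227, edgeR adjusted p = 0.00438). *Sppl2a*, which removes the last membrane stub of CD74, rose by 1.74 in LPS (SE 0.109, edgeR adjusted p = 1.69e-06) and by 0.46 in dual treatment (SE 0.118, edgeR adjusted p = 0.0285). With library-size scaling 3 rose and 2 fell in LPS, and 6 rose in dual treatment against LPS. Leaving out LPS mice 6 and 7 gave 4 rises in LPS, and 1 rise and 2 falls in dual treatment against LPS.

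Surface class II is removed by the ubiquitin ligase MARCH1 and protected from it by CD83. *Marchf1* had 4.55, 3.52 and 3.54 CPM in control, 17.9, 21.2 and 12.7 CPM in LPS, and 15.1 and 14.3 CPM in dual-treated mice, and rose in both treated groups against control (2.16, SE 0.213, edgeR adjusted p = 1.90e-05, and 1.92, SE 0.227, edgeR adjusted p = 0.000707). *Cd83* had 15.8, 14.2 and 15.1 CPM in control, 33.9, 26.3 and 20.4 CPM in LPS, and 7.62 and 6.72 CPM in dual-treated mice. The 3 groups did not overlap, and *Cd83* rose in LPS (0.84, SE 0.178, edgeR adjusted p = 0.00234) and fell in dual treatment (-1.07, SE 0.210, edgeR adjusted p = 0.00924) against control. *Marchf8*, a related ligase, fell in LPS (-0.34, SE 0.0884, edgeR adjusted p = 0.00691). All 3 passed in LPS in the same directions without LPS mice 6 and 7.

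Co-stimulation genes act beside class II in T cell activation or restraint. All 6 rose in LPS against control (median log2 difference 1.63), 3 rose in dual treatment (0.91), and 3 fell in dual treatment against LPS (-0.94). *Cd274*, the PD-L1 gene, had 17.2, 16.2 and 20.9 CPM in control, 687, 601 and 501 CPM in LPS, and 38.3 and 32.3 CPM in dual-treated mice. It rose by 5.04 in LPS (SE 0.174, edgeR adjusted p = 1.63e-07) and by 0.96 in dual treatment (SE 0.166, edgeR adjusted p = 0.00503). *Cd40* (1.33, SE 0.218), *Icosl* (0.57, SE 0.192) and *Cd80* (2.74, SE 0.298) rose in LPS with edgeR adjusted p of 0.000474, 0.0250 and 3.49e-05. Of the 6, 5 rose in LPS with library-size scaling, and 5 without LPS mice 6 and 7, when 4 fell in dual treatment against LPS.

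The class I heavy chains and their loading genes, some of them in the same region of chromosome 17, are listed for comparison. All 8 rose in LPS (median log2 difference 1.71) and in dual treatment (0.81) against control, and all 8 fell in dual treatment against LPS (-1.05), of which 4 passed with library-size scaling and 8 without LPS mice 6 and 7. The 8 rises in LPS also passed without these 2 mice. *H2-D1* had 1830, 1572 and 1870 CPM in control, 6175, 5218 and 3888 CPM in LPS, and 3154 and 3069 CPM in dual-treated mice. It rose by 1.53 in LPS (SE 0.181, edgeR adjusted p = 5.70e-05) and by 0.82 in dual treatment (SE 0.195, edgeR adjusted p = 0.0201), and the groups did not overlap. *H2-K1* (1.31, SE 0.174, edgeR adjusted p = 0.000127), *B2m* (1.56, SE 0.198, edgeR adjusted p = 9.36e-05) and *Tapbp* (2.52, SE 0.163, edgeR adjusted p = 1.97e-06) rose likewise in LPS. Dual treatment against control thus gave rises for all 8 class I genes beside 0 rises and 1 fall for the 8 class II genes, and the difference between the lists was not tested.

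Markers of cell types that carry class II, or that lung can hold, were summed per mouse. The 9 conventional dendritic cell genes summed to 177, 162 and 176 CPM in control, 71.6, 56.9 and 45.1 CPM in LPS, and 102 and 100.3 CPM in dual-treated mice. *Zbtb46* was the most abundant over all mice, with 30.2% of the sum. *Clec9a* was above *Zbtb46* in control (60.9 against 48.1 CPM) and *Itgax* in LPS (21.6 against 14.2 CPM). Whether these sums follow the number of dendritic cells was not tested. In LPS 6 of 9 fell and 1 rose, and in dual treatment 4 fell and 1 rose against control, the rise being lost with library-size and with RLE scaling. The genes of cross-presenting dendritic cells differed among themselves: *Clec9a* went from 60.9 CPM in control to 0.612 CPM in LPS and 27.7 CPM in dual-treated lungs, *Xcr1* from 1.63 to 0.467 and 0.0893 CPM, and *Batf3* from 2.56 to 14.4 and 3.50 CPM. *Cd209a* went from 8.13 to 0.925 and 0.0439 CPM, with 0 counts in dual-treated mouse 2. Without LPS mice 6 and 7, 4 of the 9 fell in LPS. Between dual treatment and LPS 3 rose and 2 fell (3 and 4 without mice 6 and 7). Of the 4 mature dendritic cell genes (*Ccl22* the most abundant over all mice), 3 rose and 1 fell in LPS, and their sums were 57.0, 53.1 and 51.0 CPM in control, 272, 219 and 214 CPM in LPS, and 80.5 and 52.5 CPM in dual-treated mice. *Cacnb3* was above *Ccl22* in control (31.6 against 7.95 CPM) and in dual-treated lungs (31.6 against 4.79 CPM). Of the mature dendritic cell genes 1 rose and 1 fell in dual treatment against control, and 1 rose and 3 fell against LPS. *Clec9a*, *Xcr1*, *Batf3* and *Cd209a* were named after their values were seen.

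The 8 B cell genes summed to 48.7, 52.8 and 49.4 CPM in control, 38.8, 42.3 and 28.1 CPM in LPS, and 83.6 and 34.5 CPM in dual-treated mice, with *Cr2* at 0 counts in LPS mouse 1. *Cd79b* was the most abundant over all mice, while *Cd79a* was above it in dual-treated mouse 2 (28.6 against 22.6 CPM) and in the dual-treatment mean (17.5 against 16.4 CPM). In LPS 4 of 8 fell and 1 rose, in dual treatment against control none passed, and against LPS 4 rose and 1 fell. Without LPS mice 6 and 7, 3 fell and 1 rose in LPS, and against LPS 2 rose and 1 fell. Dual-treated mouse 2 held the highest B cell sum and also the highest *H2-Eb2*, whereas *H2-Oa* was higher in dual-treated mouse 5. The 4 plasmacytoid dendritic cell genes (*Bst2*, 61.3% of the sum over all mice, the most abundant, *Siglech* at 0 counts in dual-treated mouse 2) summed to 225 to 247 CPM in control, 588, 512 and 364 CPM in LPS, and 311 and 248.5 CPM in dual-treated mice. In control *Tcf4* was above *Bst2* (149 against 84.9 CPM). Only *Bst2*, an interferon-induced gene in many cell types, rose in LPS (84.9 to 365 CPM), also without mice 6 and 7, and in dual treatment against control *Bst2* rose (161 CPM) and *Siglech* fell (edgeR adjusted p = 0.0247). Both fell in dual treatment against LPS, also without mice 6 and 7. The 7 T cell genes (*Lck* the most abundant) summed to 17.2 to 25.4 CPM in control, 26.3, 19.8 and 13.5 CPM in LPS, and 10.4 and 15.3 CPM in dual-treated mice, with 1 rise and 2 falls in LPS (1 and 0 without mice 6 and 7), none in dual treatment against control, and 2 falls against LPS (3 without mice 6 and 7).

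Among macrophage lists, the 8 alveolar macrophage genes (*Chil3* the most abundant, with 70.5% of the sum) summed to 870.2, 598 and 803 CPM in control, 939, 1003 and 537 CPM in LPS, and 1022 and 1600 CPM in dual-treated mice, with 1 rise and 3 falls in LPS (2 and 2 without mice 6 and 7), 1 rise in dual treatment, and 4 rises and 1 fall between dual treatment and LPS (2 and 1). The 8 interstitial macrophage genes summed to 528, 437 and 397 CPM in control, 2191, 1917 and 1616 CPM in LPS, and 1066 and 750.0 CPM in dual-treated mice, of which *Lyve1*, also a lymphatic endothelial gene, gave 77.8% over all mice. *Lyve1* alone averaged 272 CPM in control, 1782 CPM in LPS and 381 CPM in dual-treated lungs, so the LPS sums are mostly this gene. In LPS 2 rose and 3 fell (2 and 1 without mice 6 and 7), and in dual treatment 4 rose and 1 fell. Against LPS 6 rose and 1 fell in dual treatment (median log2 difference 1.71, and 5 rises and 1 fall without mice 6 and 7), so the sum does not describe most of its genes. The 5 classical monocyte genes (*Chil3* again the most abundant, with 80.4%) summed to 446 to 635 CPM in control, 908, 949 and 506 CPM in LPS, and 920.4 and 1501 CPM in dual-treated mice, with 3 rises and 1 fall in LPS (2 and 1 without mice 6 and 7), 4 rises in dual treatment, and 2 rises and 1 fall between dual treatment and LPS (2 and 1).

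The 8 alveolar type 2 genes summed to 38830, 32590 and 40790 CPM in control, 29210, 20930 and 17140 CPM in LPS, and 21450 and 31770 CPM in dual-treated mice, with *Sftpc* the most abundant. In LPS 6 of 8 fell and 1 rose (3 falls and 1 rise without mice 6 and 7), and none passed in dual treatment against control, while 3 rose against LPS (3 rises and 1 fall without mice 6 and 7). The 7 neutrophil genes (*S100a9* the most abundant) summed to 214, 118 and 125 CPM in control, 2125, 2948 and 1843 CPM in LPS, and 1715 and 2387 CPM in dual-treated mice, with 7 rises in LPS (6 without mice 6 and 7), 6 in dual treatment, and 4 rises and 1 fall between dual treatment and LPS (1 and 0). Of the 6 capillary endothelial genes (*Cdh5* the most abundant) 4 fell in LPS (4 falls and 1 rise without mice 6 and 7), 1 rose and 1 fell in dual treatment, and 4 rose against LPS (4 rises and 1 fall without mice 6 and 7). Their sums were 2742, 3061 and 3172 CPM in control, 1969, 1619 and 1575 CPM in LPS, and 2852 and 2974 CPM in dual-treated mice. The rank of *Cdh5* is over all mice, and in dual-treated lungs *Pecam1* was above it (993 against 550 CPM). The part of any of these cell types in the class II values was not tested.

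The 8 class II genes did not share a single pattern over the mice. Pearson's r was 0.982 between *H2-Aa* and *H2-Ab1* and 0.952 between *H2-Aa* and *Cd74*. It was -0.0956 between *H2-DMa* and *Cd74* and -0.549 between *H2-Oa* and *Cd74*. Their mean z-score therefore joins unlike genes and need not resemble any of them. Likeness was searched among genes with a mean of at least 1 CPM. The genes whose pattern over the 8 mice was most like the mean z-score of the class II genes were *Tm2d3* (Pearson's r = 0.95), *Fto* (0.95), *Rab9* (0.95), *Dynlt3* (0.92), *Cldn18* (0.92), *Gp6* (0.91), *Bik* (0.90) and *Csrp1* (0.90). The z-score was 0.26, -0.13 and 0.41 in control, 1.13, 0.19 and -0.61 in LPS, and -0.55 and -0.68 in dual-treated mice. For *Ciita* alone they were *Alox12* (0.98), *Gja4* (0.97), *B3gnt7* (0.96), *Treml1* (0.96) and *Ppbp* (0.96). The 8 mice share 3 groups, so these r describe the pattern and carry no test.

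Promoters are shown because several of these genes moved together in dual treatment against LPS while *H2-DMb1* and *H2-Oa*, controlled by the same kind of promoter in textbooks, did not. RefSeq's promoter table (GRCm38.p6, 250 bases before to 50 after the start) held 5 of the 8 genes in 6 entries, and *H2-Ab1*, *Cd74* and *Ciita* had none. Each sequence matched chromosome 17 of GRCm39 once, at the positions given. The letters ATTGG (those of the Y box, CCAAT on the other strand) and ACNGATG (those of an X box core) were searched on both strands and do not overlap each other here. A match of letters alone does not show a working box. ATTGG was in 5 of the 6 entries and in 37.4% of all 32851 promoters, ACNGATG in 4 and in 9.85%, and both in 4 and in 3.65%. Matches are in capitals, written 5′ to 3′ on the gene's strand.
*H2-Aa*, chr17:34506748-34507047 (minus strand): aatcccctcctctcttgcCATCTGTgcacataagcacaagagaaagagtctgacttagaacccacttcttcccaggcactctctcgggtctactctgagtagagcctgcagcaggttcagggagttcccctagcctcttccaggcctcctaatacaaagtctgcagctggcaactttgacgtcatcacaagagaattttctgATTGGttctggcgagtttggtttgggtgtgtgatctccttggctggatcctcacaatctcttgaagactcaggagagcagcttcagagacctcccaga
*H2-Eb1*, chr17:34524591-34524890 (plus strand): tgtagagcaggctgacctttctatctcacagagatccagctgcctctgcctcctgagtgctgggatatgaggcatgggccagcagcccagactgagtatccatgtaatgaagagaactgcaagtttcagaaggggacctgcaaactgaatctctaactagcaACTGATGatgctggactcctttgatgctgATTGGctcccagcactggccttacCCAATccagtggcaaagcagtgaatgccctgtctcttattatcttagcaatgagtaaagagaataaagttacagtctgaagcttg
*H2-DMb1*, chr17:34371915-34372214 (plus strand): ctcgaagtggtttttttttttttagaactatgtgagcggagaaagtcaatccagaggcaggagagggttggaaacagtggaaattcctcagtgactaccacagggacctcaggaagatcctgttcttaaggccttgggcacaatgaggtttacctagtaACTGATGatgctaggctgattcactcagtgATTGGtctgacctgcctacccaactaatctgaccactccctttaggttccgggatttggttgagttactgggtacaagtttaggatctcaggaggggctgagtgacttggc
*H2-Oa*, chr17:34311103-34311402 (plus strand): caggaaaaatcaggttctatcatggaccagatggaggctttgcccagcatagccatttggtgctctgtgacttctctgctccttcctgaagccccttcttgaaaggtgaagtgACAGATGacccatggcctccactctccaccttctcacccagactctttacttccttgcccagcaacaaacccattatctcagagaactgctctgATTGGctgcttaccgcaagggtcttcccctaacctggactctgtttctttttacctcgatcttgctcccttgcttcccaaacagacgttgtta

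ATTGG began at -48 in *H2-Aa*, -59 in *H2-Eb1*, -61 in *H2-DMb1* and -43 in *H2-Oa*, counted from the start as +1. ACNGATG began at -88 in *H2-Eb1*, -91 in *H2-DMb1* and -137 in *H2-Oa* on the gene's strand, and in *H2-Aa* at -232 on the other strand. The matches in *H2-Oa* and *H2-Aa* thus lie farther before ATTGG than those in *H2-Eb1* and *H2-DMb1*. Whether any match is an X box was not tested. *H2-Eb1* held a further CCAAT at -35. Of the 2 *H2-DMa* entries, 1 held neither and 1 held ATTGG alone at -198, and both lie before the start of its canonical transcript. Both sets of letters were thus present, at like positions, in *H2-Eb1*, which fell in dual treatment against LPS, and in *H2-DMb1*, which did not.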

How the data were processed

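Lung RNA of 8 mice was measured, 1 library each. Per the labels and methods, the authors trimmed the reads (FastQC 0.11.9, Trim Galore), aligned them to GRCm39 with HISAT2 2.2.1 and deposited raw counts per gene from featureCounts 2.0.1. The annotation release, strand setting and handling of multi-mapping reads are not stated. Of 55416 identifiers, 54749 matched GENCODE M39. For this report, edgeR 4.0.16 (R 4.3.3) scaled the libraries by TMM, dropped scarce genes with filterByExpr, and compared the 3 groups by quasi-likelihood tests from a single fit with 5 residual degrees of freedom. Benjamini-Hochberg adjustment ran over 18560 genes with a threshold of 0.05. The alternatives were other scalings, filters and criteria, DESeq2 1.42.0, and left-out mice, and those for the gene lists were chosen after seeing the data. The scripts were tested on simulated data. The members and lists were chosen with earlier results of these data known. Genes named from a list are its 4 most abundant over all mice, or those that passed where at most 4 did, with exceptions marked. *Lor*, a squamous marker, was not found by symbol. No 2 libraries were repeats of each other.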

Additional observations from a re-analysis of the deposited data

How the results depend on the processing

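No paired analysis was possible because the mouse numbers (control 1, 2 and 4, LPS 1, 6 and 7, dual treatment 2 and 5) name different animals and the groups share at most 1 number. Of 8 class II genes, 1 rose in LPS against control, but 0 with library-size scaling, 2 with DESeq2, 2 with no filter on low counts, 3 without LPS mice 6 and 7, and 0 to 3 with 1 mouse left out. The 2 falls in LPS became 1 when at least 10 counts were required in every library (which drops *H2-Oa*), 1 with a fold change over 2 and unadjusted p under 0.05, 0 without LPS mice 6 and 7, and 0 to 2 with 1 mouse left out. The 1 fall in dual treatment against control became 0 with the fold criterion, 2 with only the compared groups in the fit, and 0 to 1 with 1 mouse left out. In dual treatment against LPS the 5 falls became 3 and the 0 rises 1 with library-size scaling, the falls were 1 with the fold criterion, and 2 to 5 with 1 mouse left out. Over all genes the fold criterion called 7450 genes in LPS against control, 1944 in dual treatment against control and 6554 in dual treatment against LPS, instead of 12346, 2997 and 10960, and leaving out 1 mouse gave 1220 to 3225 in dual treatment against control. Signs of small log2 differences turned. *H2-Eb1* in LPS against control was 0.0363 with RLE, 0.0255 with DESeq2 and 0.30 without LPS mice 6 and 7, and -0.17 to 0.17 with 1 mouse left out. *H2-DMb1* in LPS against control was 0.33 without LPS mice 6 and 7 and -0.28 to 0.19 with 1 mouse left out. In dual treatment against LPS without LPS mice 6 and 7, *H2-DMa* was -0.31 and *H2-DMb1* -0.16, and with 1 mouse left out they ran from -0.16 to 0.33 and from -0.0123 to 0.45. *Cd74* in dual treatment against control ran from -0.83 to 0.16 with 1 mouse left out. The cause of these shifts was not tested. With 2 or 3 mice a group, the solvent not matched between LPS and dual treatment, and squamous and muscle RNA in 2 of 3 LPS libraries, treatment and sample composition cannot be told apart.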
